A study of Rattus norvegicus with 24 samples.

Results

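The genes described here are 34 genes of glycolysis and of the cellular response to low oxygen, followed in rat heart muscle. They comprise glucose and lactate transporters, the enzymes from hexokinase to lactate dehydrogenase, the 6-phosphofructo-2-kinases that set the pace of glycolysis, and the hypoxia-inducible factors with their hydroxylases and several target genes. The members were chosen by symbol, and every array probe whose transcript accession belongs to one of these symbols in the rat RefSeq gene table was taken. That gave 45 probes for 33 of the 34 genes, of 12894 genes that could be tested. Egln1, which encodes the main prolyl hydroxylase, had no named probe and was not analysed here. All 33 others were well above background on all 24 arrays. Each gene is represented by its brightest probe, and 9 members had more than 1.

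Total RNA of rat myocardium was hybridised to 24 single-colour Agilent arrays, with 4 samples, 2 from males and 2 from females, in each of 6 groups. The sham group had no coronary ligation stated in the labels. The IRI group underwent ischaemia-reperfusion injury of the heart, for which a ligature was placed on the left anterior descending artery. The Jiaji, Neiguan, Yanglingquan and Quchi groups had the same ligation after 7 days of acupuncture at the acupoint that names the group. The labels give no group with needling and no ligation, and the sources used here give no strain, age, reperfusion time or sampled region of the heart. The labels do not say whether each sample came from 1 animal, so p-values measure only the spread between these samples.

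Glycolysis splits glucose into pyruvate and yields ATP without oxygen. Heart muscle normally burns mostly fatty acids, and it leans on glycolysis and on lactate production when oxygen runs short. The hypoxia-inducible factors are transcription factors whose alpha subunits, encoded by Hif1a and Epas1, are hydroxylated by the Egln prolyl hydroxylases and then degraded while oxygen is plentiful. When oxygen falls the subunits persist, pair with the beta subunit encoded by Arnt and raise the transcription of many glycolytic enzymes, of Vegfa and of Car9. Control of the alpha subunits is largely at the protein, which arrays do not measure.

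Levels are log2 processed signals from which the array's own 75th percentile was subtracted, so 0 marks that percentile, and differences between groups are log2 differences on this scale with their standard errors (SE). A gene is referred to as called, or as having risen or fallen, when its adjusted p from limma (Benjamini-Hochberg over all 12894 genes) was under 0.05. A value alone in parentheses after a difference, a call or a setting is that adjusted p. Sham and IRI arrays were scanned on one day, and the acupoint arrays on a second day except Quchi replicate 1, which was scanned apart on another day. Arrays with the same scan time were taken to share a slide, and no such set held arrays of more than 1 group. Acupuncture, slide and scan day therefore cannot be told apart, nor can ligation and slide. Only males and females were compared within slides, Quchi replicate 1 aside. The share of probes well above background ran from 71.1% to 88.7% over the arrays, and the 4 Yanglingquan arrays lay between 71.1% and 76.3%. All 10 cardiomyocyte markers listed were measured. Their summed linear level, in multiples of the 75th percentile, ran from 1045 to 1349 in sham, 1036 to 1171 in IRI, 1218 to 1483 in Jiaji, 1222 to 1535 in Neiguan, 1432 to 2122 in Yanglingquan and 1096 to 1704 in Quchi. Of 6 neutrophil markers tested, of 7 listed, 1 was called higher than sham in IRI, 4 in Jiaji, 5 in Neiguan, 2 in Yanglingquan and 4 in Quchi. The shares of all genes called higher were 4.72%, 17.5%, 12.5%, 5.79% and 11.8% in that order. The summed level of the neutrophil markers ran from 0.981 to 3.86 in sham, from 2.11 to 4.42 in IRI and from 1.94 to 7.45 over the acupoint arrays. The part of these cell types in the members' values was not tested. In bulk RNA, fewer cells of a type and less RNA per cell cannot be told apart.

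On their brightest probes, no member was past the threshold after ligation alone, whereas every acupoint group differed from sham in some of them. In IRI against sham, 0 of 33 members were called by limma, beside 4.72% of all genes higher and 1.03% lower, and 1 member had an unadjusted p under 0.05. The members' differences ran from -0.52 for Hif1a to 0.61 for Slc16a3, and their median of -0.026 lay beside -0.034 for all genes. The count was also 0 under every other scaling, filter and model that was tried. That 1 member was Pfkfb3, whose groups did not overlap, with a difference of 0.32 (SE 0.15, adjusted p = 0.256). Its other probe differed by -0.36, in the opposite direction. The dimmer probes of Aldoc and Pfkl, which do not stand for their genes here, did pass the threshold over all probes, at 0.92 (SE 0.22, adjusted p = 0.0183) and 0.46 (SE 0.12, adjusted p = 0.0264).

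Set against the same 4 IRI arrays, Jiaji had 1 member higher, beside 8.39% of all genes, and 3 lower, beside 1.80%. Neiguan had 0 called by limma (4.41% of all genes higher, 1.23% lower), with 3 at an unadjusted p under 0.05. Yanglingquan had 3 higher (4.09% of all genes) and 1 lower (8.03%), and Quchi 1 higher (2.39%) and 1 lower (1.05%). Against the same 4 sham arrays, Jiaji had 3 members higher (17.5% of all genes) and 2 lower (6.55%), and Neiguan 2 higher (12.5%) and 0 lower (7.39%). There were 6 higher (5.79%) and 3 lower (7.21%) in Yanglingquan, and 5 higher (11.8%) and 4 lower (9.26%) in Quchi. As a share of 33, members called lower in Jiaji against IRI, and members called higher in Yanglingquan against IRI and against sham, exceeded the share of all genes most. The members are bright, however: 20 of the 33 lie among the brightest 25% of all genes. Of that bin, 8.78% were called higher in Yanglingquan against IRI and 8.65% against sham, so the members' 3 of 33 against IRI lay close to the share of bright genes. The 6 of 33 against sham lay above the bin's 8.65%. In Jiaji against IRI, 4.25% of the bin were called either way and 1.05% higher, with a median of -0.14. Bright genes were therefore called lower there more often than the 1.80% of all genes. Members called higher in Jiaji and Neiguan stayed under the share of all genes, and the Quchi shares lay close to that share. Of the brightest bin, 1.05% were called higher in Jiaji against IRI and 4.19% against sham, beside 1 and 3 of 33 members. The bin's shares were 1.3% and 5.21% in Neiguan, beside 0 and 2 members. In Quchi they were 0.837% and 8.72%, beside 1 and 5 members. After quantile normalization, however, Yanglingquan had 0 higher and 2 lower against sham, beside 10.4% of all genes called either way. Against IRI it then had 0 and 0 (6.61% of all genes either way). Jiaji had 0 and 3 against IRI (11%) and 2 and 4 against sham (29%). Neiguan had 0 and 2 against IRI (6.82%) and 2 and 2 against sham (26.9%). Quchi had 1 and 1 against IRI (5.01%) and 3 and 4 against sham (22.6%). The F test among the acupoint groups called 15 of 33 members, beside 39.1% of all genes. The comparisons with IRI share the IRI arrays, and those with sham share the sham arrays, so their values are not independent of each other. In all, 16 members made up the 35 calls between pairs of groups, and 6 of these calls held under every alternative and without any single array.

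**Figure D1:**
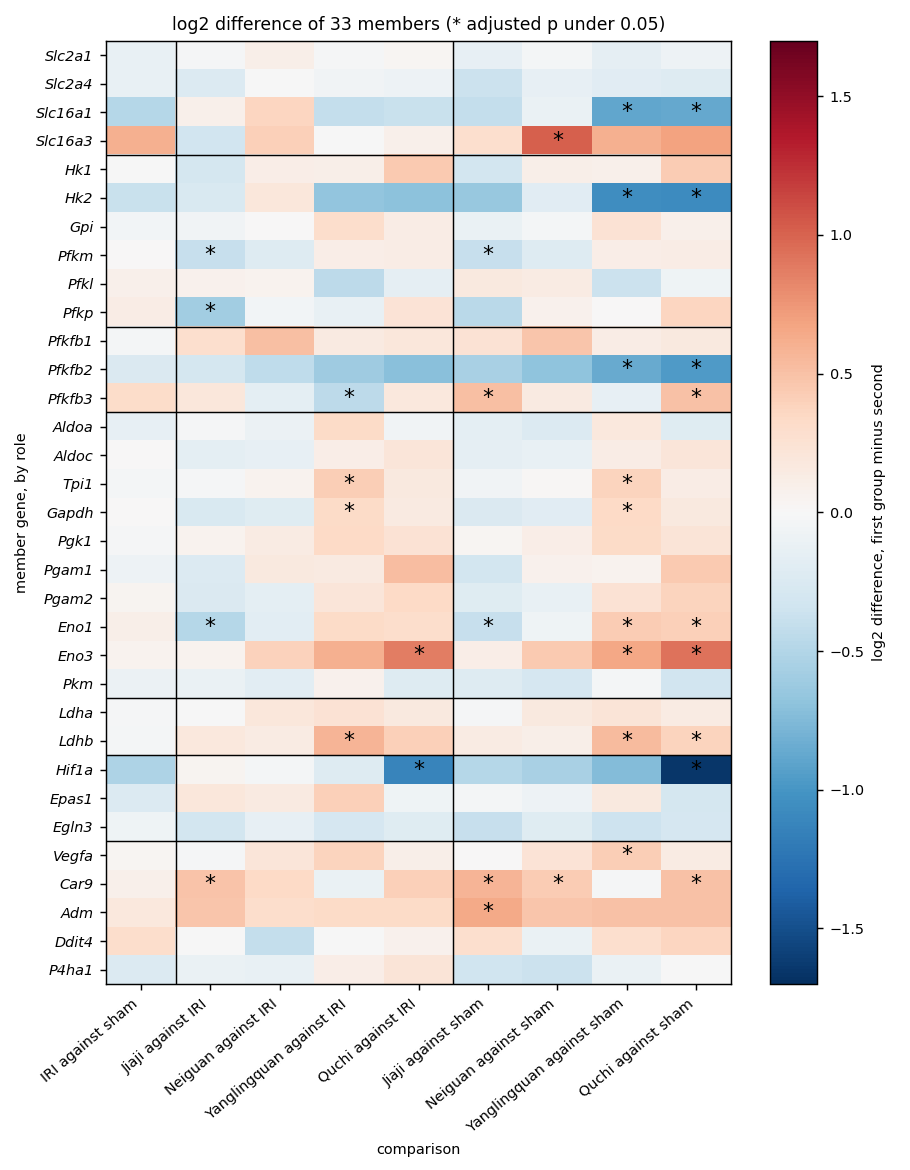
Colour shows the log2 difference of 33 members (rows, grouped by role) in 9 comparisons (columns), and asterisks mark adjusted p under 0.05. The first column, IRI against sham, carries no asterisk, and the deepest blue is Hif1a in Quchi against sham at -1.65.

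The 250 bases before the annotated starts, of called and uncalled members alike, were searched for the core of the hypoxia response element, ACGTG or GCGTG. Both strands were searched (the other strand reads as CACGT and CACGC), with overlapping matches counted as 1 site. Called members were not compared with the others. RefSeq sequences of build GRCr8 were at hand for 31 of the 33 members measured. Of these, 15 (48.4%) held a core, against 50.3% of 10547 tested genes with a sequence and 37.9% of 27457 promoters in all, so a core was about as common in the members as in the tested genes. In 10 members (32.3%) there were 2 or more sites, beside 20.8% of the tested genes, a difference that was not tested. Windows of 60 bases are printed 5′ to 3′ on the gene's strand for 7 members with calls: Hif1a (chr6:98359706-98359765, plus strand), Slc16a1 (chr2:194812468-194812527, plus), Eno1 (chr5:166002807-166002866, plus), Pfkfb3 (chr17:71944863-71944922, plus), Car9 (chr5:62558964-62559023, plus), Hk2 (chr4:116841276-116841335, minus) and Eno3 (chr10:55869126-55869185, plus). Capitals mark the core.
Hif1a: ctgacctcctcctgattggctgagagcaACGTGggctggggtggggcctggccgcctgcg
Slc16a1: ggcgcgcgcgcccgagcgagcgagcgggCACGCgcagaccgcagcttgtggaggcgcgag
Eno1: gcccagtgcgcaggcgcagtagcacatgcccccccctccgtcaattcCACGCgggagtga
Pfkfb3: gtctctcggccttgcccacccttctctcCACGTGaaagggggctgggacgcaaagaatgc
Car9: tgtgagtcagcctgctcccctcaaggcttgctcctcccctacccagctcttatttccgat
Hk2: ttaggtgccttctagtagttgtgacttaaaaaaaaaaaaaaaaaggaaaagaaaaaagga
Eno3: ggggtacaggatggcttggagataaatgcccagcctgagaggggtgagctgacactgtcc
Those of Hif1a and Slc16a1 start 192 bases before the annotated start and hold 1 of the 2 cores found in each searched region. The run in Pfkfb3 reads the same on both strands and is also the E-box CACGTG. The windows of Car9, Hk2 and Eno3 are the last 60 bases before the start and hold no core, nor did the rest of the 250 bases. A match is a run of letters, not a shown binding site, and the absence of one in this window says nothing of the factor.

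Among the transporters, both lactate carriers were called in some comparison and neither glucose carrier was. Slc2a1, the basal glucose transporter, had group means from 0.47 ± 0.26 (SD, n = 4) in Yanglingquan to 0.62 ± 0.36 in sham, through 0.5 ± 0.2 in IRI, 0.48 ± 0.22 in Jiaji, 0.53 ± 0.34 in Quchi and 0.59 ± 0.11 in Neiguan. That range of 0.15 was the narrowest of all 33 members and lay within the spread of single groups. Slc2a4, the insulin-responsive glucose transporter of muscle, ran from 3.14 ± 0.24 in Jiaji to 3.5 ± 0.078 in sham and was called in no comparison.

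Slc16a1 encodes the monocarboxylate transporter that carries lactate in both directions. It stood at 3.17, 3.07, 3.48 and 2.92 in the sham arrays and at 2.46, 2.58, 2.59 and 3.08 in IRI. The Jiaji arrays read 2.48, 2.58, 3.42 and 2.54, and the Neiguan arrays 3.02, 3.41, 2.57 and 3.19. The level was 2.86, 2.55, 2.11 and 1.58 in Yanglingquan and 2.06, 1.98, 2.18 and 2.95 in Quchi. All 4 Yanglingquan arrays lay below all 4 sham arrays, and 3 of the 4 Quchi arrays did. The gene fell in Yanglingquan against sham, with a difference of -0.88 (SE 0.27) and an adjusted p of 0.0371, and in Quchi against sham, with -0.87 (SE 0.27) and 0.0287. The Yanglingquan call ended without sham replicate 1, 2 or 3 or Yanglingquan replicate 3 or 4 (adjusted p from 0.0676 to 0.147) and with the replicate block (0.0576). The Quchi call ended without sham replicate 1, 2 or 3 or Quchi replicate 1, 2 or 3 (0.0545 to 0.0972).

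Slc16a3 encodes the lactate exporter typical of glycolytic cells. Its sham arrays read 0.016, -0.83, -1.46 and -0.33, and its IRI arrays 0.37, -0.05, -0.43 and -0.05. In Jiaji they read -0.64, -0.83, 0.053 and -0.052, in Neiguan 0.45, 0.47, 0.056 and 0.48. Yanglingquan held 0.025, 0.54, -1.17 and 0.43 and Quchi -0.1, 0.021, -0.082 and 0.32. The sham arrays were the most scattered but for Yanglingquan, and the Neiguan arrays lay above all of them. Slc16a3 rose in Neiguan against sham by 1.01 (SE 0.32), 2.02 times the sham level, with an adjusted p of 0.0295. The call ended without sham replicate 2 or 3 or Neiguan replicate 1, 2 or 4 (0.0625 to 0.125). Against IRI the Neiguan difference was 0.4 (SE 0.32), which was not called.

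Of the 6 enzymes of upper glycolysis, the hexokinase of insulin-sensitive muscle fell in Yanglingquan and Quchi against sham, and 2 phosphofructokinase subunits fell in Jiaji. Hk2, which phosphorylates glucose on entry, stood at -0.7, -0.66, -0.87 and -0.85 in sham and -0.93, -1.81, -0.77 and -1.08 in IRI. Jiaji arrays held -1.06, -2.05, -1.5 and -1.04 and Neiguan arrays -1.01, -0.58, -1.36 and -0.87. The Yanglingquan arrays were at -0.98, -1.34, -2.53 and -2.43 and the Quchi arrays at -1.55, -1.93, -2.09 and -1.79. Every array of these last groups lay below every sham array, the Quchi arrays tightly and the Yanglingquan arrays in 2 pairs, the males higher than the females. The fall in Quchi against sham was -1.07 (SE 0.27), 0.477 times the sham level, with an adjusted p of 0.00848, and it held under every alternative and without any single array. In Yanglingquan against sham it was -1.05 (SE 0.27) with 0.015, and without Yanglingquan replicate 4 the adjusted p was 0.0573. IRI lay between, at -1.15 ± 0.46 (SD, n = 4), and neither group differed from IRI past the threshold.

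Hk1, the hexokinase bound to mitochondria in most tissues, passed the threshold in no pair of groups. Its sham arrays read 5.03, 4.62, 5.02 and 4.81, its IRI arrays 4.64, 4.92, 4.79 and 5.1. It stood at 4.31, 4.49, 4.86 and 4.57 in Jiaji and 5.11, 4.87, 4.78 and 5.13 in Neiguan. Yanglingquan gave 5.23, 5.08, 4.55 and 4.99, and Quchi 5.43, 5.47, 4.92 and 5.4. Quchi replicate 3 was low among the Quchi arrays, and still above every Jiaji array. The acupoint groups differed (F test, adjusted p = 0.0107), and over the arrays of the second scan day alone the adjusted p was 0.0582.

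Pfkm, the muscle subunit of phosphofructokinase, which commits sugar to glycolysis, fell in Jiaji against both sham and IRI. It stood at 5.83, 5.67, 5.86 and 5.87 in sham and 5.68, 5.97, 5.86 and 5.74 in IRI. Jiaji arrays held 5.51, 5.44, 5.33 and 5.4, and Neiguan arrays 5.74, 5.52, 5.6 and 5.52. Yanglingquan arrays read 5.98, 6.07, 5.82 and 5.82 and Quchi arrays 5.79, 6.13, 5.87 and 5.96. All 4 Jiaji arrays lay below all sham and IRI arrays. The difference in Jiaji was -0.39 (SE 0.1) against IRI (adjusted p = 0.0155) and -0.39 (SE 0.1) against sham (adjusted p = 0.00823). The second call held under every alternative and without any single array, and the first ended without IRI replicate 2 or Jiaji replicate 3 (0.0698 and 0.0542). The F test among the acupoint groups gave 0.0011, but 0.118 after quantile normalization.

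Pfkp, the subunit first described in platelets, fell in Jiaji against IRI, with a difference of -0.59 (SE 0.17) and an adjusted p of 0.0331. It read 2.89, 2.72, 2.76 and 2.87 in sham and 3.15, 3.06, 2.74 and 2.79 in IRI. In Jiaji the arrays held 2.02, 2.67, 2.28 and 2.42, in Neiguan 2.86, 2.86, 3.02 and 2.81. Yanglingquan gave 3.13, 3.18, 2.19 and 2.75 and Quchi 3.41, 3.33, 2.86 and 3.1. The Jiaji and IRI arrays did not overlap. The call ended without IRI replicate 1 or 2 or Jiaji replicate 1, 3 or 4 (0.0659 to 0.132), while the F test among acupoint groups (0.00683) stayed under 0.05 in every alternative and without any single array.

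Gpi, which turns glucose 6-phosphate into fructose 6-phosphate, was tightly grouped: 3.61, 3.65, 3.71 and 3.77 in sham, 3.74, 3.56, 3.67 and 3.57 in IRI. The Jiaji arrays read 3.87, 3.28, 3.54 and 3.6 and the Neiguan arrays 3.69, 3.64, 3.66 and 3.58. Yanglingquan stood at 3.87, 3.92, 4.0 and 3.93, Quchi at 3.58, 3.84, 3.73 and 3.91. Yanglingquan was above sham, IRI and Neiguan in all its arrays but did not pass the threshold against sham or IRI. Only the F test did (0.0435), and that call ended after quantile normalization (0.574) and without any 1 of 19 arrays, which were all of Neiguan and Yanglingquan, replicates 2 to 4 of sham and Jiaji, replicates 1, 3 and 4 of IRI and replicates 2 and 3 of Quchi (0.0501 to 0.102). Pfkl, the liver-type subunit, ran from -0.6 ± 0.22 in Yanglingquan to -0.072 ± 0.22 in Jiaji and was not called. Its dimmer probe was higher than sham by 0.46 in IRI (0.0264 over all probes), 0.43 in Jiaji (0.0124) and 0.43 in Neiguan (0.0143), where the brighter differed by 0.082, 0.16 and 0.14. It differed from IRI by -0.56 in Yanglingquan (0.00421), where the brighter differed by -0.45.

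The Pfkfb enzymes make and break fructose 2,6-bisphosphate, the strongest activator of phosphofructokinase. Pfkfb2, the cardiac form, stood at 0.057, -0.38, -0.64 and -0.15 in sham and -0.9, -0.38, -0.15 and -0.69 in IRI. The Jiaji values were -0.34, -0.72, -1.21 and -1.06 and the Neiguan values -1.52, -0.33, -0.84 and -1.15. Yanglingquan arrays held -1.38, -0.89, -0.96 and -1.3, Quchi arrays -0.97, -1.04, -0.9 and -2.03. Neither of the latter groups overlapped sham, and Quchi replicate 4 was far below the rest. Pfkfb2 fell in Quchi against sham, with a difference of -0.96 (SE 0.27) and an adjusted p of 0.0168, which became 0.0513 without sham replicate 1 and 0.0695 without Quchi replicate 4. In Yanglingquan against sham it fell too, with -0.85 (SE 0.27) and 0.044, a call that ended without sham replicate 1, 2 or 4, Neiguan replicate 3 or 4, Quchi replicate 2 or any Yanglingquan array (0.0502 to 0.11) and after quantile normalization (0.0665). Its other probe was lower too, by -0.38 in Quchi and -0.58 in Yanglingquan, and with the mean of both probes neither call held (0.0919 and 0.0945).

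Pfkfb3, the inducible form and itself a hypoxia target, gave different answers on its 2 probes. The brighter read -2.55, -2.61, -2.57 and -2.51 in sham and -2.2, -2.34, -2.23 and -2.22 in IRI. Jiaji gave -1.86, -2.23, -2.06 and -2.07, Neiguan -2.4, -2.41, -2.44 and -2.39. Yanglingquan gave -2.91, -2.77, -2.71 and -2.4, and Quchi -2.49, -1.67, -2.29 and -1.8. On this probe the gene was higher than in sham in every Jiaji and Quchi array, and lower than in IRI in every Yanglingquan array. It rose by 0.51 (SE 0.15) in Jiaji against sham (adjusted p = 0.0154) and by 0.5 (SE 0.15) in Quchi against sham (0.0196), and fell, with a difference of -0.45 (SE 0.15), in Yanglingquan against IRI (0.0486). The other probe differed by 0.52, -0.15 and 0.32 in these comparisons, so it had the opposite sign in the last 2. Averaging the probes ended all 3 calls (0.0745, 0.574 and 0.882). The Jiaji call also ended without Jiaji replicate 1 (0.056) and under every other scaling (0.08 to 0.159), the Quchi call without Quchi replicate 2 or 4 (0.101 and 0.0674), and the Yanglingquan call after quantile normalization (0.109) and without any 1 array of sham, IRI or Neiguan, Jiaji replicate 3 or 4 or Yanglingquan replicate 1, 2 or 3 (0.0543 to 0.135). Pfkfb1, the form known from liver and skeletal muscle, was near -4.53 ± 0.49 in sham and not called.

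The 10 enzymes of lower glycolysis, from aldolase to pyruvate kinase, were all higher in Yanglingquan than in IRI with this scaling, with a median difference of 0.32 beside -0.038 for all genes, and 2 of them, Tpi1 and Gapdh, rose. After quantile normalization 5 of the 10 were higher, the median was -0.044 and 0 were called, with the authors' values 4, -0.053 and 0, and with the normexp correction 5, -0.037 and 0. In Quchi against IRI, 8 of 10 were higher with a median of 0.22, and 5 of 10 after quantile normalization with a median of 0.011. In Jiaji the list went the other way, with 2 of 10 higher and a median of -0.14 with this scaling, and 1 of 10 and -0.20 after quantile normalization. In Yanglingquan against IRI the brightest 25% of all genes had a median of 0.11 and the dimmest 25% a median of -0.37, so bright genes as a whole were higher there. Beside this, 8 of 10 cardiomyocyte markers were called higher in Yanglingquan against IRI, with a median of 0.65, and 7 against sham, with a median of 0.59. The shares of all genes called higher in these comparisons were 4.09% and 5.79%. Of 6 skeletal muscle markers tested, of 7 listed, Ckm, the muscle creatine kinase that heart also expresses, was called higher against IRI by 0.51 (SE 0.092, adjusted p = 0.00111). The other 5 were lower without a call, and the list's median was -0.18. In Jiaji against IRI, 4 of 5 erythrocyte markers tested, of 6 listed, were called lower, with a median of -0.77, and their summed level ran from 93.4 to 213 beside 209 to 312 in IRI. The part of these in the glycolytic values was not tested. Several of these enzymes, Gapdh among them, have near-identical pseudogene copies, and whether the probes also bind these was not tested.

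**Figure D2:**
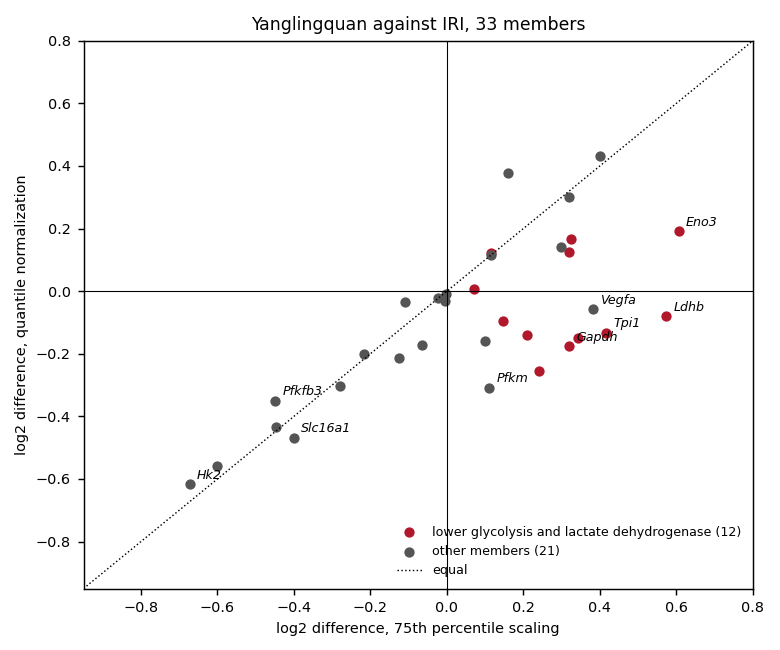
Each point is 1 member, placed by its log2 difference between Yanglingquan and IRI with 75th percentile scaling (horizontal) and after quantile normalization (vertical), red for lower glycolysis and lactate dehydrogenase. Most red points lie to the right of 0 and below the dotted line of equal values, and Ldhb, Tpi1 and Gapdh cross to below 0 on the vertical axis.

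Tpi1 interconverts the triose phosphates. It stood at 6.62, 6.42, 6.46 and 6.4 in sham and 6.37, 6.61, 6.33 and 6.44 in IRI. Jiaji arrays gave 6.32, 6.48, 6.41 and 6.48 and Neiguan arrays 6.55, 6.41, 6.56 and 6.49. In Yanglingquan it read 7.07, 7.14, 6.51 and 6.7, in Quchi 6.61, 6.78, 6.42 and 6.6. The Yanglingquan males were above all other arrays and the females were not. The rise was 0.42 (SE 0.11) against IRI (adjusted p = 0.0213) and 0.38 (SE 0.11) against sham (0.0346), and it turned to -0.13 in both after quantile normalization. The first call ended without IRI replicate 1, 3 or 4 or Yanglingquan replicate 1 or 2 (0.0565 to 0.082), the second without sham replicate 2, 3 or 4 or the same Yanglingquan arrays (0.0598 to 0.117), and the other probe of Tpi1 was higher by 0.13 against IRI.

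Gapdh oxidises glyceraldehyde 3-phosphate and is often used as a reference gene. It read 6.27, 6.18, 6.19 and 6.3 in sham and 6.24, 6.33, 6.08 and 6.34 in IRI. The Jiaji arrays stood at 6.16, 5.87, 5.79 and 6.12, the Neiguan arrays at 6.23, 5.86, 6.12 and 5.96. Yanglingquan held 6.71, 6.71, 6.41 and 6.44 and Quchi 6.48, 6.59, 6.17 and 6.36. The Yanglingquan arrays lay above all sham and IRI arrays. The rise was 0.32 (SE 0.094) against IRI (adjusted p = 0.0299) and 0.33 (SE 0.094) against sham (0.0243), and its 2 other probes were higher by 0.35 and 0.33 against IRI. After quantile normalization the differences were -0.18 and -0.13. Both calls ended without the sex term (0.0859 and 0.0701). The call against IRI ended without IRI replicate 1, 3 or 4 or Yanglingquan replicate 1 or 2 (0.0647 to 0.0977), that against sham without sham replicate 1 or 2 or the same Yanglingquan arrays (0.054 to 0.101). The F test among acupoint groups gave 0.000229, and 0.155 after quantile normalization.

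The enolases make phosphoenolpyruvate. Both Eno3 and Eno1 were called higher than sham in Yanglingquan and Quchi, and Eno1 was called lower in Jiaji. Eno3, the muscle form, read 5.38, 5.03, 5.33 and 5.48 in sham and 5.57, 5.52, 5.13 and 5.21 in IRI. Jiaji arrays held 5.55, 5.13, 5.39 and 5.59 and Neiguan arrays 5.98, 5.9, 5.45 and 5.66. Yanglingquan stood at 6.35, 6.55, 5.36 and 5.6, Quchi at 6.37, 6.75, 6.03 and 5.78. Every Quchi array lay above every sham and IRI array, and so did every Yanglingquan array but replicate 3. Eno3 rose in Quchi by 0.93 (SE 0.21) against sham, 1.90 times, with an adjusted p of 0.00392, and this held under every alternative and without any single array. Against IRI the Quchi rise was 0.87 (SE 0.21) (0.0231), which ended without IRI replicate 1, 3 or 4 or Quchi replicate 2 (0.0596 to 0.132) and after quantile normalization (0.076). In Yanglingquan against sham it was 0.66 (SE 0.21) (0.0416), ending without sham replicate 1, 2 or 3 or Yanglingquan replicate 1 or 2 (0.0568 to 0.162) and after quantile normalization (0.376).

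Eno1, the form of most tissues, stood at 3.34, 3.67, 3.39 and 3.48 in sham and 3.85, 3.66, 3.35 and 3.42 in IRI. In Jiaji it was 3.39, 2.94, 2.82 and 3.16, in Neiguan 3.32, 3.48, 3.53 and 3.25. Yanglingquan gave 4.01, 4.09, 3.78 and 3.7 and Quchi 4.09, 4.29, 3.53 and 3.59. Jiaji was the lowest group and overlapped sham and IRI through replicate 1. Yanglingquan lay above all sham arrays, and Quchi overlapped them. Eno1 fell in Jiaji, with a difference of -0.49 (SE 0.13) against IRI (0.0223) and -0.39 (SE 0.13) against sham (0.0398), and rose against sham by 0.43 (SE 0.13) in Yanglingquan (0.0416) and 0.4 (SE 0.13) in Quchi (0.0376). The F test among acupoint groups (0.000282) stayed under 0.05 in every alternative, whereas each of the 4 pairwise calls ended after quantile normalization (0.0654 to 0.293). Single arrays also ended them: IRI replicate 1 or 2 or Jiaji replicate 3 or 4 in the first, sham replicate 2, 3 or 4 or Jiaji replicate 2, 3 or 4 in the second, sham replicate 1, 2 or 3, Neiguan replicate 3 or any Yanglingquan array in the third, and sham replicate 1, 2 or 3 or Quchi replicate 1 or 2 in the fourth (0.0505 to 0.157).

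The phosphoglycerate mutases were called only by the F test. Pgam1, the common form, read 4.85, 4.4, 4.75 and 4.77 in sham and 4.61, 4.81, 4.44 and 4.59 in IRI. Its Jiaji arrays held 4.11, 4.5, 4.56 and 4.35 and its Neiguan arrays 4.75, 4.64, 4.79 and 4.9. Yanglingquan gave 5.03, 5.32, 4.1 and 4.59, Quchi 5.17, 5.23, 4.97 and 5.15. The Quchi arrays lay above all arrays of sham and IRI, with a difference from sham of 0.44 (SE 0.18, adjusted p = 0.0945). Across acupoint groups the adjusted p was 0.0212, a call that ended over the arrays of the second scan day alone (0.0841) and without Jiaji replicate 1 (0.0653) or Quchi replicate 2 (0.0537).

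Pgam2, the muscle form, stood at 5.23, 5.13, 5.11 and 5.25 in sham and 5.14, 5.38, 5.03 and 5.34 in IRI. Jiaji read 5.19, 5.06, 4.91 and 4.76 and Neiguan 5.23, 4.96, 5.04 and 4.98. Yanglingquan read 5.66, 5.79, 5.03 and 5.24 and Quchi 5.65, 5.87, 5.53 and 5.2. The groups overlapped with IRI, and the F test gave 0.00645 (0.0638 after quantile normalization). Of the remaining lower enzymes, Aldoa (muscle aldolase), Pgk1 (phosphoglycerate kinase) and Pkm (pyruvate kinase) were called nowhere. Their widest differences from sham were -0.24 in Neiguan, 0.32 in Yanglingquan and -0.32 in Quchi. Aldoc, the aldolase known from brain, was not called on its brighter probe, which differed from sham by 0.011 in IRI, -0.16 in Jiaji and -0.13 in Neiguan. Its dimmer probe, also well above background on all 24 arrays, was higher than sham by 0.92 in IRI (0.0183 over all probes), 1.09 in Jiaji (0.00125) and 0.93 in Neiguan (0.00603), and differed from IRI by -0.70 in Yanglingquan (0.0454). The probes thus gave different answers.

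Lactate dehydrogenase interconverts pyruvate and lactate, and its heart-type subunit was called where its muscle-type subunit was not. Ldhb, the heart type, read 7.27, 7.01, 7.12 and 6.98 in sham and 7.01, 7.21, 7.03 and 7.01 in IRI. In Jiaji it stood at 7.15, 7.34, 7.4 and 7.08, in Neiguan at 7.19, 7.1, 7.37 and 7.15. Yanglingquan held 7.58, 7.78, 7.47 and 7.7, Quchi 7.58, 7.85, 7.2 and 7.25. All Yanglingquan arrays were above all sham and IRI arrays. The rise was 0.57 (SE 0.13) against IRI (0.00604) and 0.54 (SE 0.13) against sham (0.00929), and no single array ended either call. Both turned after quantile normalization, to -0.079 and -0.072. In Quchi against sham the rise of 0.37 (SE 0.13) (0.0431) ended after quantile normalization (0.421) and without IRI replicate 3, sham replicate 2, 3 or 4, Neiguan replicate 1 or 4 or Quchi replicate 1 or 2 (0.051 to 0.19). Ldha, the muscle type, had means of 6.36 ± 0.14 (SD, n = 4) in sham, 6.33 ± 0.082 in IRI, 6.33 ± 0.14 in Jiaji, 6.52 ± 0.17 in Neiguan, 6.58 ± 0.4 in Yanglingquan and 6.49 ± 0.26 in Quchi. These are within 0.24 of each other, and no comparison called it.

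Of the factors themselves, Hif1a transcripts were low in Quchi, the largest difference of any member between any pair of the groups compared. Hif1a stood at -0.3, 0.33, 0.02 and 0.13 in sham and -0.43, -0.88, -0.37 and -0.24 in IRI. Jiaji arrays read -0.0013, -0.86, -0.48 and -0.41, and Neiguan arrays -0.63, 0.089, -1.0 and -0.5. Yanglingquan read -0.28, -0.91, -0.65 and -0.96, and Quchi -2.05, -2.02, -1.26 and -1.09. Every Quchi array was below every array of every other group. Quchi replicates 1 and 2, both males, of which replicate 1 was scanned apart, were the lowest. The fall against sham was -1.65 (SE 0.25), to 0.318 times the sham level, with an adjusted p of 0.000248, and it held under every alternative and without any single array. Against IRI it was -1.13 (SE 0.25), 0.458 times, with 0.0162, and it ended without IRI replicate 1 or 4 or Quchi replicate 2 (0.0582, 0.0608 and 0.0916). The acupoint groups differed from each other (F test, 0.00391), also within their shared scan day. IRI itself differed from sham by -0.52 (SE 0.25), which was not called (0.285), and the differences from sham of Jiaji, Neiguan and Yanglingquan, -0.48, -0.55 and -0.74, did not pass the threshold either.

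Epas1, the HIF-2 alpha subunit prominent in endothelium, ran from -1.74 ± 0.2 in Quchi to -1.27 ± 0.25 in Yanglingquan and was called nowhere. Egln3, the prolyl hydroxylase most abundant in heart and itself induced by HIF, had means of 1.4 ± 0.2 in sham, 1.32 ± 0.23 in IRI, 1.01 ± 0.18 in Jiaji, 1.19 ± 0.33 in Neiguan, 1.05 ± 0.14 in Yanglingquan and 1.12 ± 0.11 in Quchi. It was highest in sham, and its largest difference, -0.39 (SE 0.15, adjusted p = 0.0722) in Jiaji against sham, was not called.

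**Figure D3:**
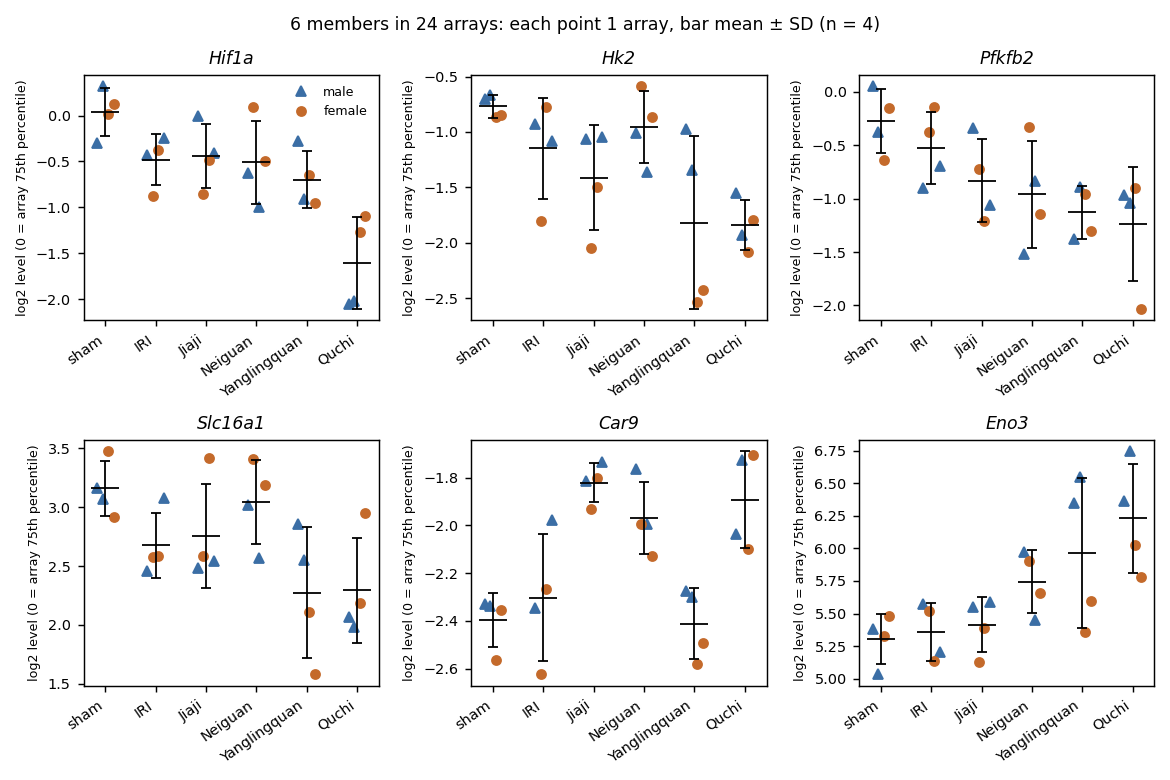
Each panel shows 1 member with the log2 level of every array (triangles males, circles females) by group, and the mean ± SD of 4 arrays. The Quchi arrays of Hif1a, from -2.05 to -1.09, lie below all others, while those of Eno3 lie above all sham and IRI arrays.

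Of the 5 target genes, 4 were higher than sham in IRI, Jiaji and Quchi, and 3 in Neiguan and Yanglingquan. Their median was 0.093 in IRI, 0.29 in Jiaji, 0.24 in Neiguan, 0.29 in Yanglingquan and 0.37 in Quchi. For all genes it was -0.034, -0.086, -0.099, -0.056 and 0.035 in that order. Called higher were 0, 2, 1, 1 and 1 of the 5, beside 4.72%, 17.5%, 12.5%, 5.79% and 11.8% of all genes. Car9, a membrane carbonic anhydrase widely used as a mark of hypoxia, stood at -2.33, -2.34, -2.56 and -2.36 in sham and -2.34, -2.62, -2.27 and -1.98 in IRI. The Jiaji arrays held -1.82, -1.93, -1.8 and -1.74, the Neiguan arrays -1.76, -1.99, -1.99 and -2.13. In Yanglingquan it read -2.27, -2.3, -2.58 and -2.49, and in Quchi -2.04, -1.73, -2.1 and -1.71. All Jiaji, Neiguan and Quchi arrays lay above all sham arrays, and the Yanglingquan arrays overlapped them. Car9 rose against sham by 0.58 (SE 0.12) in Jiaji (0.00111), 0.43 (SE 0.12) in Neiguan (0.0143) and 0.5 (SE 0.12) in Quchi (0.00504). The Jiaji and Quchi calls held under every alternative and without any single array, and the Neiguan call ended without sham replicate 3 (0.0507) or Neiguan replicate 1 (0.0561). Against IRI, Car9 rose in Jiaji by 0.48 (SE 0.12) (0.0104), a call that ended without IRI replicate 2 (0.0523) and after quantile normalization (0.0639). Yanglingquan differed from sham by -0.016 (SE 0.12), and the F test among acupoint groups gave 0.00253, under 0.05 in every alternative.

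Adm encodes adrenomedullin, a vasodilator peptide. Its sham arrays read 0.61, -0.056, 0.55 and 0.21 and its IRI arrays 0.077, 0.51, 1.07 and 0.36. Jiaji stood at 0.66, 0.8, 1.43 and 1.03, Neiguan at 0.78, 0.47, 0.91 and 1.06. Yanglingquan gave 0.4, 0.83, 0.96 and 1.11 and Quchi 0.79, 0.44, 1.14 and 0.96. The Jiaji arrays were above all sham arrays and overlapped IRI. Adm rose in Jiaji against sham by 0.65 (SE 0.2) (0.02), which ended without sham replicate 2 or 4 or Jiaji replicate 3 or 4 (0.059 to 0.0745) and with median scaling (0.135). The means were 0.33 ± 0.31 (SD, n = 4) in sham, 0.5 ± 0.42 in IRI and between 0.81 ± 0.25 and 0.98 ± 0.33 in the acupoint groups, and the other 3 acupoint groups did not pass the threshold.

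Vegfa, the growth factor of blood vessels, read 5.94, 5.64, 5.66 and 5.92 in sham and 5.74, 5.62, 6.0 and 5.94 in IRI. Jiaji arrays held 5.71, 5.78, 5.88 and 5.82, Neiguan arrays 6.27, 5.78, 6.05 and 6.01. Yanglingquan stood at 6.17, 6.44, 5.98 and 6.24 and Quchi at 5.85, 5.97, 5.77 and 6.11. The Yanglingquan arrays were above all sham arrays. Vegfa rose in Yanglingquan against sham by 0.41 (SE 0.13) (0.0354), but its 3 other probes differed by -0.05, 0.10 and -0.21, and the difference was 0.03 after quantile normalization (0.907). The call ended without sham replicate 2 or 3 or Yanglingquan replicate 2 or 4 (0.0884 to 0.129). Ddit4, an inhibitor of mTOR signalling, and P4ha1, a collagen prolyl hydroxylase, were called nowhere. Their widest differences from IRI were -0.4 for Ddit4 in Neiguan and 0.22 for P4ha1 in Quchi.

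Related genes were also compared within each array, which removes any shift of the whole array. The offset between 2 probes has no meaning by itself, and only its change between groups is given. Of 11 pairs over 5 comparisons, 8 of 55 exact two-sided permutation tests reached 0.0286, the smallest p that 70 assignments of 4 and 4 arrays allow, and 0 of 55 passed after Benjamini-Hochberg adjustment (lowest 0.196). Eno1 relative to Eno3 was lower than in IRI by 0.55 in Jiaji, 0.56 in Neiguan and 0.57 in Quchi, with no overlap with IRI in each. Hk2 relative to Hk1 was lower in Quchi by 1.13, with arrays from -7.40 to -6.98 against -6.73 to -5.56 in IRI. Epas1 relative to Hif1a was higher in Quchi by 1.05. Ldha relative to Ldhb was lower in Quchi by 0.25, and Pgam2 relative to Pgam1 lower in Neiguan by 0.33. Slc16a3 relative to Slc16a1, exporter against two-way carrier, stood 1.09 higher in IRI than in sham, with arrays from -3.13 to -2.09 against -4.93 to -3.15, although neither gene was called alone.

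**Figure D4:**
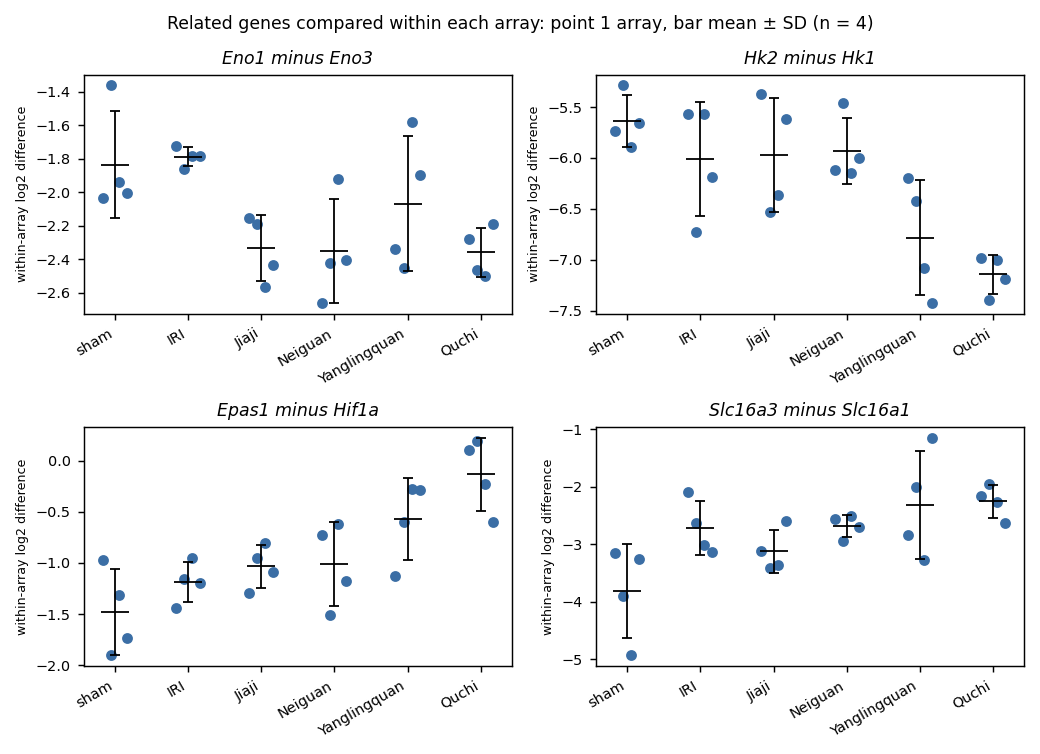
Each panel shows the within-array log2 difference of 2 related genes in every array by group, with the mean ± SD of 4 arrays. Eno1 minus Eno3 is lower than in all IRI arrays in Jiaji, Neiguan and Quchi, and Epas1 minus Hif1a is highest in Quchi.

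Genes of the same pathways outside the members were taken from 5 lists. Of 66 calls between pairs of groups, in 26 of these genes, 21 held under every alternative and without any single array. Among 22 other known HIF targets tested, IRI had 1 higher (4.72% of all genes) and 0 lower (1.03%) against sham. That gene was Angptl4, an inhibitor of lipoprotein lipase, at 2.11 (SE 0.58, adjusted p = 0.0358). This call was lost when any of replicates 2 to 4 of IRI or of sham was left out (0.0577 to 0.16). Angptl4 also rose against sham in Jiaji (2.7 (SE 0.58, adjusted p = 0.00187)) and Yanglingquan (2.89 (SE 0.58, adjusted p = 0.0031)), and no single array ended these 2 calls. It rose against sham in Neiguan (1.84, adjusted p = 0.0308) and Quchi (1.89, adjusted p = 0.0261) as well. Leaving out 1 array ended the Neiguan call in 5 cases and the Quchi call in 4. Against sham, 6 targets were higher and 1 lower (Bnip3l) in Jiaji, beside 17.5% and 6.55% of all genes. Neiguan had 4 and 2 (Bnip3l and Car12), beside 12.5% and 7.39%. Yanglingquan had 2 and 1 (Car12), beside 5.79% and 7.21%, and Quchi 4 and 2 (Bnip3l and Bhlhe40), beside 11.8% and 9.26%. Against IRI, 3 were higher and 0 lower in Jiaji (8.39% and 1.80% of all genes), and 2 and 0 in Neiguan (4.41% and 1.23%). The counts were 1 and 1 in Yanglingquan (4.09% and 8.03%), and 1 and 0 in Quchi (2.39% and 1.05%). Kdm3a, a histone demethylase, rose against IRI in Jiaji (0.75 (SE 0.16, adjusted p = 0.00396)) and Neiguan (0.69 (SE 0.16, adjusted p = 0.0113)) under every alternative. Ak4, a mitochondrial adenylate kinase, rose in Jiaji against IRI by 1.75 (SE 0.42, adjusted p = 0.00993). In Neiguan against IRI Ak4 rose by 1.56 (adjusted p = 0.0316), a call that leaving out 1 array ended in 6 cases. Epo, the erythropoietin gene, rose in Jiaji against IRI by 0.85 (SE 0.18, adjusted p = 0.00341). Its rise in Quchi against IRI, 0.71 (SE 0.18, adjusted p = 0.0318), ended without IRI replicate 1 or 3 or Quchi replicate 2, 3 or 4 (0.0548 to 0.15). The 1 target lower in Yanglingquan against IRI was Car12, which was well above background on 12 of 24 arrays and on none of the Yanglingquan arrays, and is given no fold there. The 1 higher was Stc2, at 0.7 (SE 0.2, adjusted p = 0.0277), which ended without IRI replicate 2, 3 or 4 or Yanglingquan replicate 3 or 4 (0.0557 to 0.0995).

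Of 12 regulators of the HIF pathway, Arnt2, a partner of the alpha subunits, was called higher against sham in each acupoint group, from 0.75 (SE 0.15) in Neiguan to 0.98 (SE 0.15) in Quchi, but with the mean over its probes none of these 4 calls held (0.115 to 0.61). Hif3a, whose products can oppose HIF, rose in Jiaji against sham (0.72 (SE 0.18, adjusted p = 0.0062)). Arnt, the usual beta subunit, fell in Yanglingquan against sham (-1.12 (SE 0.25, adjusted p = 0.00562)), where it was well above background on 1 of the 4 Yanglingquan arrays, and the call ended with the normexp correction (0.103). Siah1, a ubiquitin ligase that acts on prolyl hydroxylases, fell in Quchi against sham (-0.78 (SE 0.2, adjusted p = 0.00781)). Against sham the list had 2 higher and 0 lower in Jiaji, 1 and 1 (Hif1an) in Neiguan, 1 and 1 in Yanglingquan, and 2 (Rack1 being the other) and 1 in Quchi. The shares of all genes to set beside these counts are those given above for the HIF targets.

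Of 16 genes of glucose uptake and glycogen, Slc5a1, the sodium-coupled glucose transporter, was the 1 called in IRI against sham, higher by 0.94 (SE 0.18, adjusted p = 0.00318) under every alternative and without any single array. It was also higher than sham in Jiaji (1.15 (SE 0.18, adjusted p = 8.03e-05)), Neiguan (1.09 (SE 0.18, adjusted p = 0.000187)) and Quchi (0.91 (SE 0.18, adjusted p = 0.00168)). Against sham this list had 1 higher and 0 lower in Jiaji, 1 and 1 (Phkg1) in Neiguan, 0 and 1 (Phka1) in Yanglingquan, and 1 and 2 in Quchi. The same shares of all genes stand beside the counts of this list and the next. Of 15 other glycolytic and side-branch enzymes, Eno2, the neuronal enolase, was the 1 called in IRI against sham (0.4 (SE 0.11, adjusted p = 0.0439)), a call that ended after quantile normalization (0.0957) and without any 1 array of IRI or sham or Neiguan replicate 1 or 3 (0.0545 to 0.135). It rose against sham in Quchi (0.73 (SE 0.11, adjusted p = 0.000288)) and Jiaji (0.48 (SE 0.11, adjusted p = 0.00443)) and fell against IRI in Yanglingquan (-0.48 (SE 0.11, adjusted p = 0.00964)), of which the last 2 calls ended after quantile normalization (0.106 and 0.0613). Gpd2, the mitochondrial glycerol phosphate dehydrogenase, fell in Quchi against sham (-0.67 (SE 0.17, adjusted p = 0.00941)). That list had 2 higher (Pklr and Eno2) and 1 lower (Bpgm) in Jiaji against sham, 2 (Pklr and Pfkfb4) and 0 in Neiguan, and 2 (Eno2 and Pfkfb4) and 1 in Quchi. Of 9 genes that bring pyruvate into mitochondria, the pyruvate carriers and the pyruvate dehydrogenase complex, limma called 0 in every comparison, with at most 2 at an unadjusted p under 0.05 in any of them.

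Females and males shared the slides, except that Quchi replicate 1, a male, was scanned apart. This comparison called 0 of 33 members by limma (0.0465% of all genes higher in females and 0.163% lower), with 9 at an unadjusted p under 0.05. Of those, Gapdh, Eno1, Eno3, Pgam2, Aldoc, Hk2, Slc2a4 and Car9 were lower in females and Adm was higher. Gapdh differed by -0.20 (SE 0.054, adjusted p = 0.129) and Eno1 by -0.27 (SE 0.078, adjusted p = 0.166).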

How the data were processed

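The members and gene lists were chosen with earlier results of these data known. Per the labels, total RNA was extracted with TRIzol, labelled with Cy3 and hybridised to Agilent arrays. Feature Extraction was version 10.7.3.1 per the submitters' processing notes and 11.0.1.1 per the file headers. The intensity used is Agilent's processed signal in the authors' deposited scanner files. The authors' deposited log2 values, whose columns share a median and quartiles and whose normalization the sources used here do not state, served as an alternative.

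Control spots (1377 per array) and spots marked as outliers (8733 over all 24 arrays together) were left out. Each array's log2 intensity was set to 0 at its 75th percentile. A probe was kept (25149 were) if at least 1 group had it well above background on each of its arrays, and 12894 genes were tested, each by its probe of highest mean signal. Probes were named through their accessions in RefSeq, build GRCr8 (18005 of 30367). limma 3.58.1 in R 4.3.3 fitted group and sex over 24 arrays (17 residual degrees of freedom), with Benjamini-Hochberg adjustment over all genes and a threshold of 0.05. Every member called in a comparison is given array by array, with group means for several others, and up to 3 called genes of smallest p are named per outside list and comparison. The design assumed Agilent's mean signal for the normexp correction (offset 50), and the median signal was used. The fit was tested on simulated data. The 4 arrays a group limit the precision. Alternatives were 4 other scalings or signals, 2 other filters, the mean over probes, no sex term, a replicate block, single scan days and each array left out, and a slide block could not be fitted. The alternatives for genes outside the members were chosen after seeing the data.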

Additional observations from a re-analysis of the deposited data

Results flagged for a closer look

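In 11 of the 198 sets of 4 arrays (33 members in 6 groups), 1 array stood far from the other 3 by Dixon's test, where chance gives about 1 in 20. Among the transporters, Slc2a1 was low in Jiaji replicate 2 (0.16, the others from 0.55 to 0.62) and high in Neiguan replicate 2 (0.76, the others from 0.52 to 0.56). Slc16a1 was high in Jiaji replicate 3 (3.42, the others from 2.48 to 2.58), and Slc16a3 was low in Neiguan replicate 3 (0.056, the others from 0.45 to 0.48). Among the enzymes, Hk1 was low in Quchi replicate 3 (4.92), Pfkfb2 low in Quchi replicate 4 (-2.03), Aldoc high in Neiguan replicate 2 (-0.50) and Pkm high in Jiaji replicate 1 (2.88, the others from 1.94 to 2.02). Ldha was high in sham replicate 1 (6.56), and Ldhb was high in IRI replicate 2 (7.21). Car9 was low in sham replicate 3 (-2.56).

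The acupoint groups differed from each other, by limma's F test over the 4 groups, in 15 members (39.1% of all genes). The adjusted p was 0.0107 for Hk1, 0.0342 for Hk2, 0.0435 for Gpi, 0.0011 for Pfkm, 0.00683 for Pfkp and 0.00437 for Pfkfb3. In lower glycolysis it was 0.0238 for Tpi1, 0.000229 for Gapdh, 0.0212 for Pgam1, 0.00645 for Pgam2, 0.000282 for Eno1 and 0.0219 for Eno3. It was 0.0289 for Ldhb, 0.00391 for Hif1a and 0.00253 for Car9. Only the calls of Pfkp, Eno1, Hif1a and Car9 held under every alternative and without any single array. Of 34 other settings, left-out arrays included, 24 ended the call of Gpi, 13 that of Hk2 and 9 that of Ldhb. The call of Tpi1 ended in 6 and that of Eno3 in 5, and each of the rest in 1 to 3. Each acupoint group had slides of its own, so acupoint and slide cannot be told apart.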

How the results depend on the processing

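Of 35 calls of members between pairs of groups, 18 ended after quantile normalization, 18 with the authors' values, 16 with the normexp correction, 9 with median scaling, 9 with the mean over probes, 7 without the sex term and 2 with the replicate block. The members called in Yanglingquan against IRI were 4, but 0 with quantile normalization, 8 with median scaling, 1 with normexp and 0 with the authors' values. The share of all genes called there was 12.1%, and in that order 6.61%, 13.1%, 5.51% and 6.65%. In Neiguan against IRI 0 became 2, 1 and 2 with quantile, normexp and the authors' values, and in Neiguan against sham 2 became 4, 4 and 4, and 7 with median scaling. The share of all genes called in Neiguan against IRI went from 5.63% to 6.82%, 5.98% and 6.74%. Against sham it went from 19.9% to 26.9%, 24.9% and 26.9%, and to 33.6% with median scaling. In Jiaji against sham 5 became 18 with median scaling, which also moved the median of all genes there to -0.36 and called 53.2% of them. In Yanglingquan against sham 9 became 2 with quantile, 3 with normexp, 2 with the authors' values and 5 with the mean over probes. The share of all genes called there went from 13% to 10.4% with quantile, 9.31% with normexp and 10.9% with the authors' values. The F test among acupoint groups went from 15 to 8 with quantile, 8 with the authors' values and 9 within the second scan day.

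Signs turned in Yanglingquan against IRI with quantile, normexp and the authors' values, in that order, for Gapdh (-0.18, -0.20, -0.17), Ldhb (-0.079, -0.046, -0.078) and Tpi1 (-0.13, -0.15, -0.13), and for Pfkm with normexp (-0.36). Against sham they turned for Gapdh (-0.13, -0.16, -0.13), Ldhb (-0.072, -0.0031, -0.071) and Tpi1 (-0.13, -0.16, -0.12), and for Vegfa with normexp (-0.052). With the mean over probes, Aldoc was 0.47 in Jiaji and 0.40 in Neiguan against sham, and Arnt2 was -0.015 in Yanglingquan against IRI. The cause was not tested.

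Leaving out 1 array at a time, the members called ran from 0 to 4 in Jiaji against IRI, 0 to 1 in Neiguan, 1 to 7 in Yanglingquan and 0 to 3 in Quchi. Against sham they ran from 3 to 6, 0 to 4, 2 to 10 and 5 to 12, and in the F test from 11 to 18. They stayed at 0 (0 to 0) in IRI against sham, in females against males and in the related gene pairs. The extremes came without IRI replicate 2 (0 in Jiaji), IRI replicate 1 or Quchi replicate 2 (0 in Quchi), Jiaji replicate 1 (7 in Yanglingquan against IRI), sham replicate 3 or Neiguan replicate 1 (0 in Neiguan against sham) and sham replicate 2 (2 in Yanglingquan against sham).

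Same-numbered samples did not pair: over 60 pairs the mean correlation of deviations was 0.034 (-0.386 to 0.372). With the replicate block the members called were 0 in IRI against sham, 4, 0, 3 and 2 against IRI, 5, 2, 8 and 10 against sham, and 14 in the F test.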

Other observations

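In Yanglingquan, both males lay above both females in 20 of 33 members, among them Hk1, Hk2, Tpi1, Gapdh, Eno1, Eno3 and Ldha, where 27.1% of all genes had that order. The median difference of males over females was 0.29 for the members and 0.0018 for all genes, and 16 of the 20 members kept that order after quantile normalization. The summed cardiomyocyte markers ran from 1763 to 2122 in these males and from 1432 to 1669 in the females. In Quchi the order held in 14 members (25.1% of all genes) and in 8 after quantile normalization, with marker sums of 1469 to 1704 in males and 1096 to 1325 in females, and Quchi replicate 1, a male, was scanned on its own. That order was found in 10 members in Neiguan (15.1% of all genes), 8 in Jiaji (17.1%), 3 in sham (19.7%) and 2 in IRI (13.1%). After quantile normalization these counts were 3 in Neiguan, 12 in Jiaji, 2 in sham and 3 in IRI, so the count in Jiaji then exceeded that in Quchi. The share of all genes with that order was not computed after quantile normalization. The counts under it, those of Yanglingquan and Quchi included, therefore have no share to be read against. The part of the marker levels in these orders was not tested, and the difference between groups was not tested.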
